A study of Mus musculus with 29 samples.

Results

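The transcripts described here are those of 9 genes of myelin and of mature oligodendrocytes, Mbp, Mobp, Mag, Mog, Cnp, Cldn11, Mal, Opalin and Ugt8a. They were taken by gene symbol from the count tables, which list 25746 genes, and all 9 were among the 17031 genes with enough reads to be tested. The data are 29 RNA sequencing libraries of mouse brain tissue in 8 groups, 21 days after a large photothrombotic stroke of the sensorimotor cortex or without stroke. In photothrombosis, light applied through the skull activates an injected dye, which clots the vessels of the lit cortex. Tissue of stroked mice was microdissected around the lesion. Control libraries are labelled as controls without stroke, the methods name contralesional cortex, and naive mice are named elsewhere in the study, so that the site of the control tissue is not certain. The labels name no animals, and the numbers of animals in the methods do not match the libraries per group, so libraries may share an animal.

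Non-stroked tissue gave 4 WT, 3 Rag2-/- and 4 NSG libraries, and stroked tissue 4 WT, 3 Rag2-/- and 3 NSG libraries. A further 3 libraries came from stroked WT mice that received the calcineurin inhibitor tacrolimus from the day of stroke (acute), and 5 from mice that received it from day 7 (delayed), by osmotic pump. There were no libraries of non-stroked mice on tacrolimus, so the 3 WT stroke groups are all compared with the same 4 WT controls. Rag2-/- mice lack mature T and B lymphocytes. NSG mice lack T, B and natural killer cells and have a NOD strain background, whereas the other mice were C57BL/6, so in NSG the immune deficiency and the strain cannot be told apart. Mice of both sexes were used, at 3 months of age. Rag2 had a count of 0 in 28 of the 29 libraries and a highest count of 2, so it could not serve as a check of the Rag2-/- label in brain.

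Myelin is the stack of compacted oligodendrocyte membrane that insulates axons and lets action potentials jump between nodes. Its compact layers are held together by basic proteins such as MBP, its innermost and outermost layers carry adhesion proteins such as MAG and MOG, and its lipid fraction is rich in cholesterol and galactosylceramide. In cortex, oligodendrocytes are most frequent in the deep layers and in the white matter below, so that the amount of white matter in a dissected piece bears on the level of every gene of this kind. In bulk tissue, fewer oligodendrocytes and less RNA per oligodendrocyte cannot be told apart.

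Libraries held between 17789044 and 43403413 counted reads. The sample titles show 2 cohorts, Imm2 with 20 libraries and TF with 9. All 11 non-stroked libraries were in Imm2, as were stroked WT replicates 1 and 2 and acute tacrolimus replicate 1, whereas stroked WT replicates 3 and 4, acute tacrolimus replicates 2 and 3 and all 5 delayed tacrolimus libraries were in TF. A difference between delayed tacrolimus and WT controls therefore cannot be told apart from the cohort. Acute tacrolimus replicates 1 and 2 stood apart from the other stroked libraries, with summed fibroblast markers of 86.7 and 56.6 CPM (counts scaled to a common library total), against 413 CPM in replicate 3, 59.2 to 73.7 CPM in WT controls and 294 to 659 CPM in stroked WT. Their summed microglia and macrophage markers were 283 and 305 CPM, against 563 CPM in replicate 3, 220 to 258 CPM in WT controls and 447 to 601 CPM in stroked WT. The summed level of 8 striatal neuron markers ranged from 129 to 2392 CPM and that of 7 choroid plexus markers from 4.12 to 1589 CPM over all libraries, and the part of dissection in the levels given here was not tested.

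Compared per kilobase of exon and averaged over all libraries, Mbp, which encodes myelin basic protein, was the most abundant of the 9 genes at 370.2 CPM per kilobase and ranked 36 of the 17031 genes. It was followed by Mobp, another basic protein of compact myelin, at 151 CPM per kilobase. Mal, a tetraspan proteolipid of myelin membrane, had 95.8, the tight junction protein Cldn11 had 86.3 and the phosphodiesterase Cnp had 79.8 CPM per kilobase. Mag stood at 50.6 and Mog at 33.4 CPM per kilobase. Ugt8a, the enzyme that makes galactosylceramide, had 11.8 and Opalin, a transmembrane glycoprotein of oligodendrocytes, had 9.22 CPM per kilobase. Depth did not limit these genes, since the lowest count of any of them in any library was 291, for Opalin.

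The promoters of 8 of the 9 genes were listed in RefSeq (build GRCm38.p6), and Mbp was not matched. The windows shown cover 250 bases before to 50 bases after the start, on the strand of the gene, and are those of 4 genes that stand for different patterns in the results. Cnp was higher and Opalin lower with delayed tacrolimus, Mobp followed Mbp from library to library, and Ugt8a followed the other members least. Capitals mark the letters of 6 short motifs on either strand, namely ACAAAG of the SOX family, CTGGCAC and CTGGTAC of MYRF, the E-box CAGCTG, the GC box GGGCGG and TATAAA. The Mobp window lies at chr9:120149492-120149791, that of Cnp at chr11:100574689-100574988, that of Opalin at chr19:41077064-41077363 and that of Ugt8a at chr3:125938603-125938902, the last 2 on the minus strand.
Mobp: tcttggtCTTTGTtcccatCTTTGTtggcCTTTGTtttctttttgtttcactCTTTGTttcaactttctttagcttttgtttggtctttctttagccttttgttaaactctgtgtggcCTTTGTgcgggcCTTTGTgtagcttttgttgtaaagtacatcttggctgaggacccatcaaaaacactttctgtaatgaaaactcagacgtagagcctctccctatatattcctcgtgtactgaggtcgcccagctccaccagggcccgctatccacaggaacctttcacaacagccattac
Cnp: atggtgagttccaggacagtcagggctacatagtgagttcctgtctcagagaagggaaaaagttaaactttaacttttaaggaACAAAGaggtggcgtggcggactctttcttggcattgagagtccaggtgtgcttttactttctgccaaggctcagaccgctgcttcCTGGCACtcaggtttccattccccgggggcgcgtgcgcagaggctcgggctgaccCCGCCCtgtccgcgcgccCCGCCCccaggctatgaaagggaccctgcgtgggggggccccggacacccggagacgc
Opalin: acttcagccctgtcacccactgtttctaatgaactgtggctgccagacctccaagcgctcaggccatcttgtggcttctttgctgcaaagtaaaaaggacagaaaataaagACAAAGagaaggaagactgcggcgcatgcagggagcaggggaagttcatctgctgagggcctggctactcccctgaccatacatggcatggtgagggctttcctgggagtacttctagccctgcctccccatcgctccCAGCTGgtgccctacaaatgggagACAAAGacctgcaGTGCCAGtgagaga
Ugt8a: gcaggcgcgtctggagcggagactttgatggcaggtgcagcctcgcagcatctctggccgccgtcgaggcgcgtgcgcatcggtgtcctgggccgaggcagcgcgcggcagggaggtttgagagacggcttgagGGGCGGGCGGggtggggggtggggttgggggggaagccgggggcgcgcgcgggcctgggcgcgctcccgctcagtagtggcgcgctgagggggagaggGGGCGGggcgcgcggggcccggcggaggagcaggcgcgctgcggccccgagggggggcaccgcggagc
The Mobp window holds 6 copies of ACAAAG, read on the opposite strand as CTTTGT, and a GC content of 43.3%. The Cnp window holds both ACAAAG and CTGGCAC, besides a pair of GC boxes. The Opalin window holds ACAAAG at a pair of sites, the E-box and CTGGCAC on the opposite strand. The Ugt8a window holds only GC boxes, 3 in number and in part overlapping, and has a GC content of 78.3%. Of all 32851 promoter windows in the RefSeq table, 18.7% hold ACAAAG, 5.01% CTGGCAC, 2.24% CTGGTAC, 16.3% CAGCTG, 35.7% GGGCGG and 13.6% TATAAA. Among the 8 genes, ACAAAG was found in Cnp, Mag, Mobp and Opalin, CTGGCAC in Cnp, Mag and Opalin, CTGGTAC in Mog, the GC box in Cldn11, Cnp and Ugt8a, and TATAAA in none. These genes had 10 windows, 3 of them of Mag, so gene counts and the shares of windows above are unlike measures. By window, ACAAAG was in 5 and CTGGCAC in 4 of the 10. Mag windows hold ACAAAG at -126 and -67 and CTGGCAC at -68 and -9, so overlapping windows may count the same site more than once. A match of letters is a description of the sequence and does not show that a factor binds there.

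The 9 genes were first followed from control to stroked tissue within each strain, which asks whether oligodendrocyte transcripts around the lesion differ 21 days after stroke. At an adjusted p below 0.05, 0 of 9 members passed in WT, Rag2-/- or NSG mice. The share of all tested genes that passed was 26.9% in WT, 8.23% in Rag2-/- and 21.9% in NSG. At an unadjusted p below 0.05 the members numbered 2 in WT, 1 in Rag2-/- and 0 in NSG, and DESeq2 called 0 in each strain. In WT the count depended on which groups were fitted. Fitted on the 2 WT groups alone, without the spread of the other groups, 3 members passed, namely Cldn11 at 0.36 (adjusted p = 0.0081), Ugt8a at -0.40 (adjusted p = 0.028) and Cnp at 0.28 (adjusted p = 0.042), against 26.1% of all genes. The median log2 fold change of the 9 members was 0.27 in WT, 0.18 in Rag2-/- and 0.18 in NSG, where the median of all tested genes was within 0.03 of 0 in each strain. The 95% intervals of single members included 0, except those of Cldn11 in WT and Rag2-/- and of Ugt8a in WT.

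**Figure D1:**
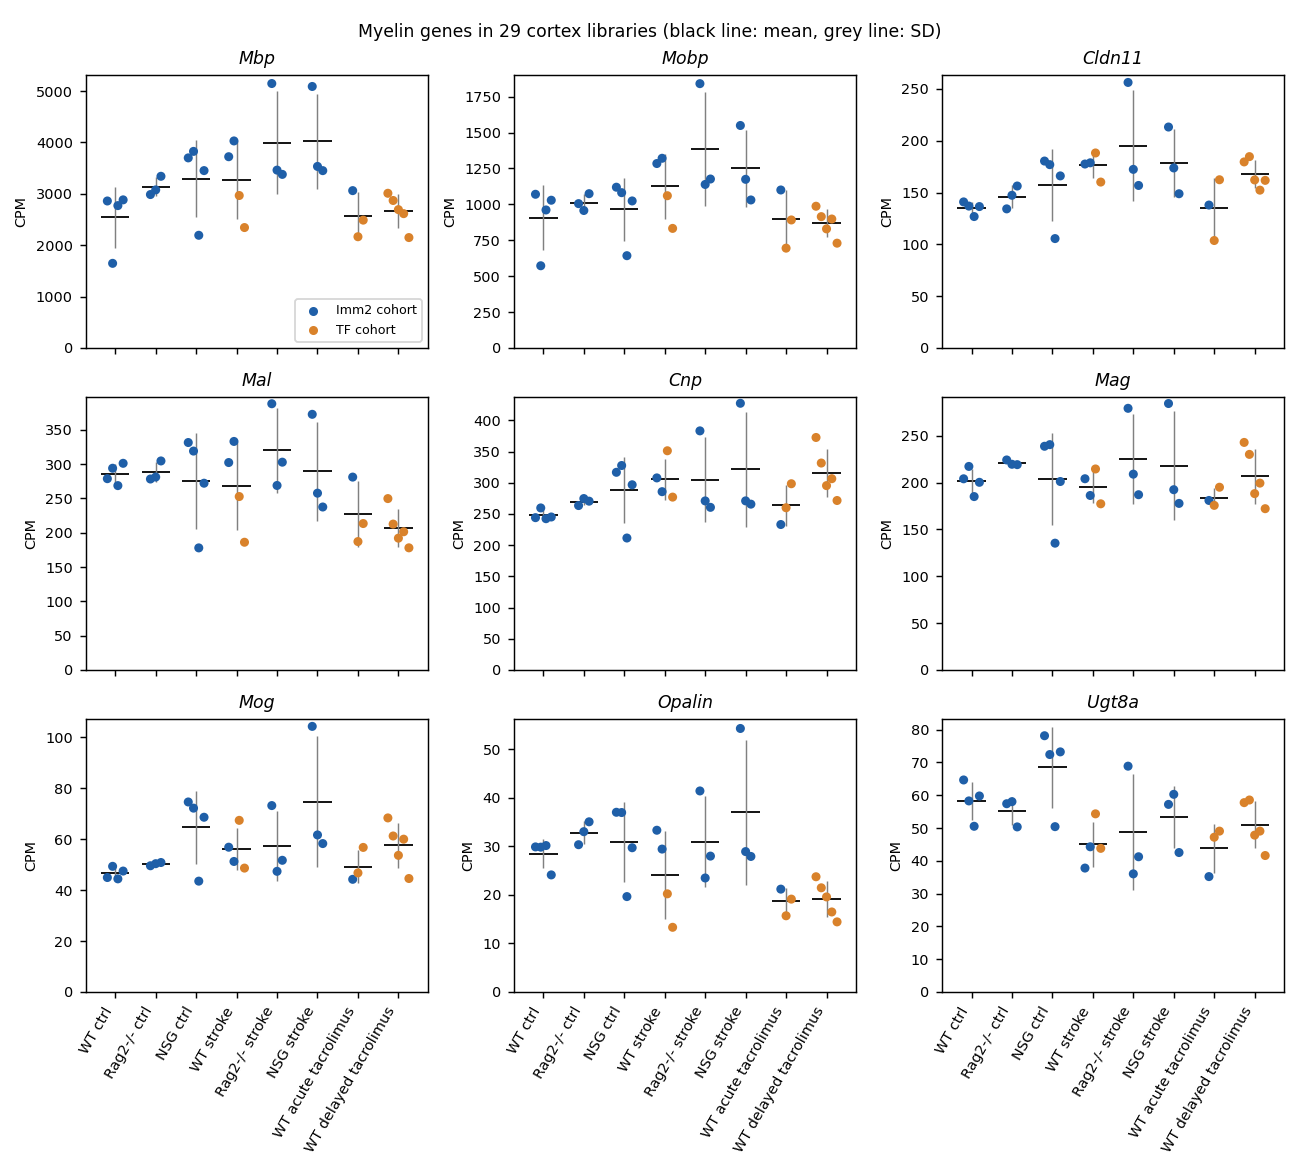
Level of each of the 9 genes in CPM (vertical axis, starting at 0) in every library of the 8 groups (horizontal axis). Points are libraries coloured by cohort, horizontal lines are group means and bars are 1 SD. Mbp in WT control replicate 3 lies at 1648 CPM, below the 2771 to 2883 CPM of the other WT controls, and stroked Rag2-/- replicate 1 and stroked NSG replicate 1 lie at the top of their groups for most genes.

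The basic proteins of compact myelin had the highest levels and a broad spread. Mbp was at 2861, 1648, 2771 and 2883 CPM in WT controls and at 3723, 4030, 2968 and 2344 CPM in stroked WT. Rag2-/- libraries were at 2986, 3077 and 3342 CPM without stroke and 5147, 3462 and 3379 CPM with stroke. NSG libraries were at 3700, 3826, 2194 and 3453 CPM without stroke and 5090, 3534 and 3452 CPM with stroke. All 3 stroked Rag2-/- libraries lay above all 3 Rag2-/- controls, while the groups overlapped in WT and NSG. The log2 fold change of Mbp with stroke was 0.36 (SE 0.20, adjusted p = 0.18) in WT, 0.35 (SE 0.23, adjusted p = 0.41) in Rag2-/- and 0.29 (SE 0.21, adjusted p = 0.34) in NSG, and none of these passed.

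Mobp, which encodes a small basic protein of compact myelin, had a like pattern. It was at 1070, 573, 961 and 1029 CPM in WT controls and at 1284, 1321, 1060 and 833 CPM in stroked WT. Rag2-/- libraries were at 1005, 957 and 1075 CPM without stroke and 1841, 1139 and 1177 CPM with stroke. The Rag2-/- groups did not overlap and the WT groups did, with log2 fold changes of 0.45 (SE 0.23, adjusted p = 0.27) and 0.31 (SE 0.20, adjusted p = 0.27). Levels of Mobp in NSG were 1120, 1082, 643 and 1024 CPM without and 1549, 1174 and 1031 CPM with stroke, a log2 fold change of 0.37 (SE 0.22, adjusted p = 0.22). WT control replicate 3 was low in Mbp and Mobp only. On the log2 scale it was 0.78 below the mean of the other WT controls for Mbp and 0.83 below it for Mobp, and 0.01 to 0.15 above it for the other 7 members.

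Cldn11, which seals the myelin spiral with tight junctions, came closest to the threshold after stroke in WT. It was at 141, 137, 127 and 136 CPM in WT controls and at 178, 179, 188 and 160 CPM in stroked WT, so that every stroked library lay above every control. The log2 fold change was 0.38 (95% interval 0.06 to 0.70, adjusted p = 0.069). Rag2-/- mice had 134, 147 and 156 CPM without stroke and 256, 172 and 157 CPM with stroke, again without overlap, with a log2 fold change of 0.42 (95% interval 0.05 to 0.79, adjusted p = 0.16). In NSG mice the groups overlapped, at 180, 177, 106 and 166 CPM against 213, 174 and 149 CPM, and the log2 fold change was 0.18 (SE 0.17, adjusted p = 0.45). Cldn11 did not pass in any strain when all groups were fitted together. Over all tested genes, 16.3% in WT and 18.8% in Rag2-/- were higher after stroke without overlap of the groups.

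Cnp, an enzyme of the cytoplasmic channels of myelin, had little spread among WT controls, which were at 244, 260, 242 and 245 CPM. Stroked WT libraries were at 308, 286, 351 and 277 CPM, all above the controls, with a log2 fold change of 0.30 (SE 0.15, adjusted p = 0.13). In Rag2-/- mice Cnp was at 264, 275 and 271 CPM without and 383, 271 and 261 CPM with stroke, and only replicate 1 stood above its controls. In NSG mice it was at 317, 328, 212 and 297 CPM without and 427, 271 and 266 CPM with stroke, where again only replicate 1 was above every control. Part of the Cnp exons, 154 bases or 4.23% of them, overlaps the gene Dnajc7 on the opposite strand. The library kit marks strand, but whether the counting used it is not stated.

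Ugt8a was the member with a negative log2 fold change in all 3 strains. It was at 64.7, 58.3, 50.5 and 59.8 CPM in WT controls and at 37.8, 44.3, 54.3 and 43.8 CPM in stroked WT, where 3 of 4 stroked libraries lay below every control. The log2 fold change was -0.37 (95% interval -0.73 to -0.02, adjusted p = 0.11). In NSG mice it was at 78.2, 72.4, 50.4 and 73.2 CPM without and 57.2, 60.3 and 42.5 CPM with stroke, a log2 fold change of -0.36 (95% interval -0.74 to 0.02, adjusted p = 0.16). Rag2-/- mice had Ugt8a at 57.4, 58.0 and 50.3 CPM without and 68.9, 36.0 and 41.2 CPM with stroke. There replicate 1 was above and the other stroked libraries were below the controls, and the log2 fold change was -0.18 (SE 0.20, adjusted p = 0.66). The WT groups overlapped, and Ugt8a did not pass in any strain when all groups were fitted together.

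Mag, an adhesion protein that faces the axon, and Mog, an adhesion protein of the outer myelin surface, differed little. Mag ranged from 185 to 217 CPM in WT controls and from 177 to 215 CPM in stroked WT, and its log2 fold change was -0.04 (SE 0.16) in WT, 0.03 (SE 0.18) in Rag2-/- and 0.10 (SE 0.17) in NSG. Mog ranged from 44.4 to 49.3 CPM in WT controls and from 48.6 to 67.4 CPM in stroked WT, with overlap. Its log2 fold change was 0.27 (SE 0.18) in WT, 0.19 (SE 0.20) in Rag2-/- and 0.21 (SE 0.19) in NSG. The adjusted p of these 6 values ran from 0.27 to 0.96.

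Mal and Opalin, membrane proteins of mature oligodendrocytes, had log2 fold changes of opposite sign between strains, none of which passed. Mal was at 279, 294, 269 and 301 CPM in WT controls and at 302, 333, 253 and 186 CPM in stroked WT. Opalin was at 29.9, 29.8, 30.1 and 24.1 CPM in WT controls and at 33.3, 29.4, 20.2 and 13.3 CPM in stroked WT. For each gene, the 2 stroked libraries of the TF cohort were below every control and those of the Imm2 cohort were not. The log2 fold change of Mal was -0.09 (SE 0.18) and that of Opalin -0.24 (SE 0.25) in WT. In NSG they were 0.07 (SE 0.20) and 0.26 (SE 0.26), and in Rag2-/- they were 0.15 (SE 0.21) and -0.08 (SE 0.28).

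**Figure D2:**
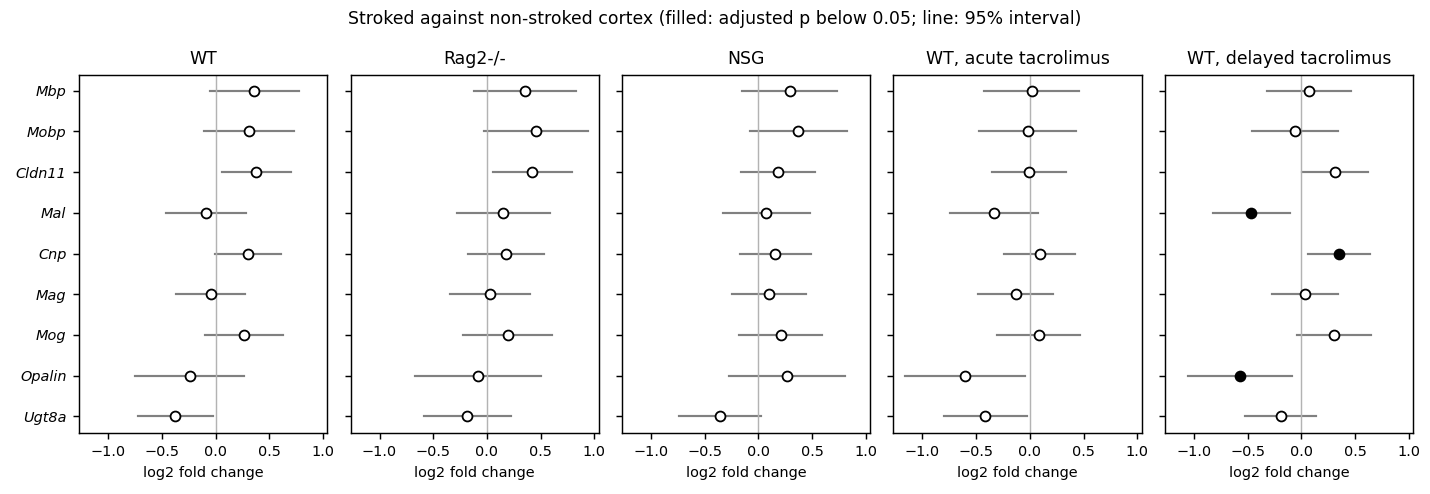
Log2 fold change (horizontal axis) of the 9 genes in the 5 comparisons of stroked with non-stroked mice. Points are edgeR estimates, bars are 95% intervals, and filled points passed at an adjusted p below 0.05. Filled points occur only for delayed tacrolimus, for Cnp at 0.35, Mal at -0.47 and Opalin at -0.57.

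Within the Imm2 cohort alone, where stroked WT had 2 libraries and the controls 4, 0 of 9 members passed for stroke in WT and 9.11% of all tested genes did. There the log2 fold change was 0.62 for Mbp (SE 0.23, adjusted p = 0.12), 0.53 for Mobp (SE 0.24, adjusted p = 0.20) and 0.40 for Cldn11 (SE 0.19, adjusted p = 0.22). Mal was at 0.16 and Opalin at 0.14, positive where the estimate over both cohorts was negative, and Ugt8a was at -0.50 (SE 0.22, adjusted p = 0.18). Once the cohort was added to the model as a covariate, 0 of 9 members passed and 12.3% of all genes did. In that fit the TF cohort was below the Imm2 cohort in Mal (log2 difference -0.52, adjusted p = 0.029) and Opalin (-0.66, adjusted p = 0.048), 2 of 9 members against 27.6% of all genes. The differences were -0.49 for Mbp (adjusted p = 0.069), -0.47 for Mobp (adjusted p = 0.091) and 0.33 for Ugt8a (adjusted p = 0.18), and those of Cnp, Mog, Mag and Cldn11 lay between -0.04 and 0.15.

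Stroked mice on acute tacrolimus were compared with WT controls to see the 9 genes under an early calcineurin block. None of the 9 passed, against 8.54% of all tested genes, with 2 members at an unadjusted p below 0.05 and 0 called by DESeq2. Opalin was at 21.2, 15.7 and 19.1 CPM, below every WT control, with a log2 fold change of -0.61 (95% interval -1.16 to -0.05, adjusted p = 0.15). Ugt8a was at 35.2, 47.2 and 49.1 CPM, also below every WT control, with a log2 fold change of -0.41 (95% interval -0.80 to -0.03, adjusted p = 0.15). Over all genes, 9.2% were lower without overlap in this comparison. Mal was at 281, 187 and 213 CPM, with the TF libraries below the controls and the Imm2 library inside their range (log2 fold change -0.33, SE 0.20, adjusted p = 0.29).

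With acute tacrolimus Mbp was at 3063, 2166 and 2489 CPM and Cnp at 233, 260 and 298 CPM. The log2 fold changes of these genes and of Mobp, Mag, Mog and Cldn11 lay between -0.13 and 0.09. Since replicates 1 and 2 had lesion markers near the control level, the comparison was also made with replicate 3 alone, a choice made after seeing the data. Its spread was then taken from the other groups. In that fit 19.8% of all genes and 0 of 9 members passed, and the log2 fold changes were 0.29 for Mog, 0.27 for Cnp, 0.26 for Cldn11, -0.25 for Ugt8a, -0.42 for Mal and -0.57 for Opalin. Their standard errors were 0.28, 0.23, 0.23, 0.27, 0.29 and 0.42.

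In mice on delayed tacrolimus, 1 member rose and 2 fell against WT controls, and 55.2% of all tested genes passed, 27.6% higher and 27.6% lower, so the share of members was below that of all genes. Cnp was at 373, 332, 296, 307 and 272 CPM, above every control, and rose by 0.35 on the log2 scale (SE 0.14, adjusted p = 0.039). Mal was at 250, 213, 192, 201 and 178 CPM, below every control, and fell by 0.47 on the log2 scale (SE 0.17, adjusted p = 0.025). Opalin was at 23.7, 21.4, 19.6, 16.5 and 14.4 CPM, below every control, and fell by 0.57 on the log2 scale (SE 0.23, adjusted p = 0.042). DESeq2 called 3 members and 56.2% of all genes. Fitted on these 2 groups alone, Mog at 0.32 (adjusted p = 0.013) and Cldn11 at 0.33 (adjusted p = 5.1e-04) passed as well, 5 members against 64.1% of all genes. Over all genes, 26.5% were higher and 27.4% lower without overlap of the groups.

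All WT controls of this comparison were of the other cohort. With the cohort as a covariate, which takes its value from the stroked WT and acute tacrolimus libraries, 0 of 9 members and 9% of all genes passed. The log2 fold changes were then 0.20 for Cnp (adjusted p = 0.62), 0.050 for Mal (adjusted p = 0.92) and 0.094 for Opalin (adjusted p = 0.90), the last 2 with the sign changed. Of 8 striatal neuron markers 6 were also higher with delayed tacrolimus, with sums of 822 to 1804 CPM against 332 to 639 CPM in WT controls, and their part in the result was not tested. The calls also changed when single libraries were left out. Without WT control replicate 3, 0 members and 51% of all genes passed, while the log2 fold changes stayed near those above, at 0.37 for Cnp (adjusted p = 0.052), -0.45 for Mal (adjusted p = 0.051) and -0.55 for Opalin (adjusted p = 0.078). Only 1 member passed without WT control replicate 1, 4 or 5, where 48.7%, 50.1% and 50.3% of all genes did, or without delayed replicate 3, 4 or 5, where 51%, 51.4% and 49.6% did. Cldn11 was at 180, 185, 162, 152 and 162 CPM, above every control, with a log2 fold change of 0.31 (95% interval 0.01 to 0.62, adjusted p = 0.074). Mbp at 0.07, Mobp at -0.06 and Mag at 0.03 stayed near 0, and Mog was at 0.31 (SE 0.17, adjusted p = 0.12) and Ugt8a at -0.19 (SE 0.16, adjusted p = 0.32).

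Tacrolimus-treated and untreated stroked WT mice were then compared directly. For acute tacrolimus 0 of 9 members and 0% of all genes passed, with 1 member at an unadjusted p below 0.05 and 0 called by DESeq2. All 9 log2 fold changes were negative, with a median of -0.24 where all genes had a median of 0.01. The member at the unadjusted threshold was Cldn11, at 138, 104 and 162 CPM against 160 to 188 CPM in untreated stroked WT (log2 fold change -0.39, 95% interval -0.73 to -0.04, adjusted p = 0.34). With acute replicate 3 alone, 0 members and 0% of all genes passed, Cldn11 was at -0.12 (SE 0.23) and Mog and Ugt8a were above 0. For delayed tacrolimus 0 of 9 members and 0% of all genes passed, with 1 member at an unadjusted p below 0.05 and 0 called by DESeq2. That member was Mal, at -0.38 (95% interval -0.73 to -0.02, adjusted p = 0.23).

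Within the TF cohort, the 5 delayed and 2 untreated stroked libraries differed by at most 0.20 on the log2 scale in any of the 9 genes. There 0 members and 0% of all genes passed, for acute against untreated and delayed against acute libraries as well. Between delayed and acute tacrolimus, 0 of 9 members passed and 20.3% of all genes did, with 0 members at an unadjusted p below 0.05 and 0 called by DESeq2. The largest log2 difference was that of Cldn11, at 0.32 (95% interval -0.01 to 0.65, adjusted p = 0.16), and it passed at 0.48 (adjusted p = 0.045) when acute replicate 3, the library with lesion markers, was left out, where 32.9% of all genes passed.

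Strains were compared without stroke to learn whether the immune-deficient mice start from another level of myelin transcripts. Between NSG and WT controls 0 of 9 members and 9.76% of all genes passed, with 1 member at an unadjusted p below 0.05 and 0 called by DESeq2. That member was Mog, at 74.6, 72.2, 43.5 and 68.6 CPM in NSG against 44.9, 49.3, 44.4 and 47.5 CPM in WT. In 3 of the 4 NSG libraries Mog was above every WT control, and the log2 fold change was 0.48 (95% interval 0.12 to 0.84, adjusted p = 0.089). NSG control replicate 3 was the lowest NSG control for all 9 genes, on average 0.53 below its group on the log2 scale. Without it Mog passed, at a log2 fold change of 0.63 (adjusted p = 0.021), with 6.98% of all genes.

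Rag2-/- and WT controls differed in 0 of 9 members and in 0.00587% of all genes, with 0 members at an unadjusted p below 0.05 and 0 called by DESeq2. In 5 members, Mbp, Mog, Mag, Cnp and Opalin, every Rag2-/- control was above every WT control, which held for 4.02% of all genes. Their log2 fold changes were between 0.11 and 0.30 with standard errors of 0.16 to 0.26, and the adjusted p was 1 for each. Between NSG and Rag2-/- controls 0 of 9 members and 6.33% of all genes passed, with 0 members at an unadjusted p below 0.05 and 0 called by DESeq2. The largest differences were those of Mog at 0.37 (SE 0.19, adjusted p = 0.32) and Ugt8a at 0.31 (SE 0.19, adjusted p = 0.41), higher in NSG.

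After stroke, 0 of 9 members differed between Rag2-/- and WT mice, where 0.00587% of all genes passed, with 0 at an unadjusted p below 0.05 and 0 called by DESeq2. The 9 log2 differences lay between -0.0025, for Cnp, and 0.36, for Opalin. Every Rag2-/- library was in Imm2, and stroked WT was in both cohorts. Within the Imm2 cohort the differences lay between -0.0016, for Opalin, and 0.26, for Ugt8a, with Mbp at 0.061. Between stroked NSG and stroked WT mice 0 of 9 members and 12.9% of all genes passed, with 2 at an unadjusted p below 0.05 and 0 called by DESeq2. All 9 log2 differences were positive. Opalin, at 54.2, 28.9 and 27.9 CPM in stroked NSG, was at 0.62 (95% interval 0.08 to 1.16, adjusted p = 0.12), and Mog, at 104, 61.6 and 58.3 CPM, was at 0.42 (95% interval 0.03 to 0.80, adjusted p = 0.14). Without stroked WT replicate 1 Opalin passed, at 0.82 (adjusted p = 0.040), as did 18% of all genes. All NSG libraries were in Imm2, whereas stroked WT was split over both cohorts. Within the Imm2 cohort the Opalin difference was 0.23 (SE 0.28, adjusted p = 0.71) and that of Mog 0.46 (SE 0.23, adjusted p = 0.32), Mbp was at 0.044, and Mobp at -0.067, Mal at -0.15 and Cldn11 at -0.0038 had negative differences. Between stroked NSG and stroked Rag2-/- mice 0 of 9 members and 8.44% of all genes passed, with 0 at an unadjusted p below 0.05 and 0 called by DESeq2.

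The stroke effect itself was compared between strains with interaction terms. For Rag2-/- relative to WT 0% of all genes passed, for NSG relative to WT 0.0294%, and for NSG relative to Rag2-/- 0%, and 0 of 9 members passed in each, with 0 at an unadjusted p below 0.05 and 0 called by DESeq2. The adjusted p of the members was at least 0.56, for Opalin in NSG relative to WT, where the difference of the log2 fold changes was 0.50 (95% interval -0.24 to 1.25). For Mbp the differences were -0.01 (95% interval -0.64 to 0.61) for Rag2-/- and -0.07 (95% interval -0.68 to 0.53) for NSG relative to WT. These intervals are wider than the stroke effects themselves. All Rag2-/-, NSG and control libraries were in Imm2, whereas stroked WT was split over both cohorts. Within the Imm2 cohort the differences of Mbp were -0.25 (SE 0.33) for Rag2-/- and -0.34 (SE 0.32) for NSG relative to WT. There Opalin was at 0.10 (SE 0.35) in NSG relative to WT.

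By mean level over groups, stroked NSG or stroked Rag2-/- mice ranked highest in 8 of the 9 genes, the exception being Ugt8a, which was highest in NSG controls. Mbp ran from 4025 ± 923 CPM (SD, n = 3) in stroked NSG, 3996 ± 998 CPM (SD, n = 3) in stroked Rag2-/- and 3293 ± 749 CPM (SD, n = 4) in NSG controls down to 2541 ± 597 CPM (SD, n = 4) in WT controls. Neighbouring groups in that order differed by less than 1 SD of either group, except Rag2-/- controls at 3135 ± 185 CPM (SD, n = 3) and delayed tacrolimus at 2668 ± 328 CPM (SD, n = 5), whose libraries overlapped. Stroked Rag2-/- replicate 1 was on average 0.40 and stroked NSG replicate 1 on average 0.39 above their groups on the log2 scale. Without these 2 libraries, stroked NSG or stroked Rag2-/- ranked highest in 2 of the 9 genes, Mbp (3493 CPM in stroked NSG) and Mobp (1158 CPM in stroked Rag2-/-). The highest value of 8 of the 9 genes over all 29 libraries was in either of these libraries, and Ugt8a, with NSG control replicate 1, was the exception. Stroked Rag2-/- replicate 1 also had the highest sum of the choroid plexus markers, at 1589 CPM, and the part of dissection in these levels was not tested. All stroked NSG and Rag2-/- libraries were in Imm2, whereas stroked WT was split over both cohorts. In Imm2, stroked WT libraries were at 3723 and 4030 CPM for Mbp and at 1284 and 1321 CPM for Mobp. These values are above the 3493 and 1158 CPM given above, and the part of the cohort in the order was not tested.

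**Figure D3:**
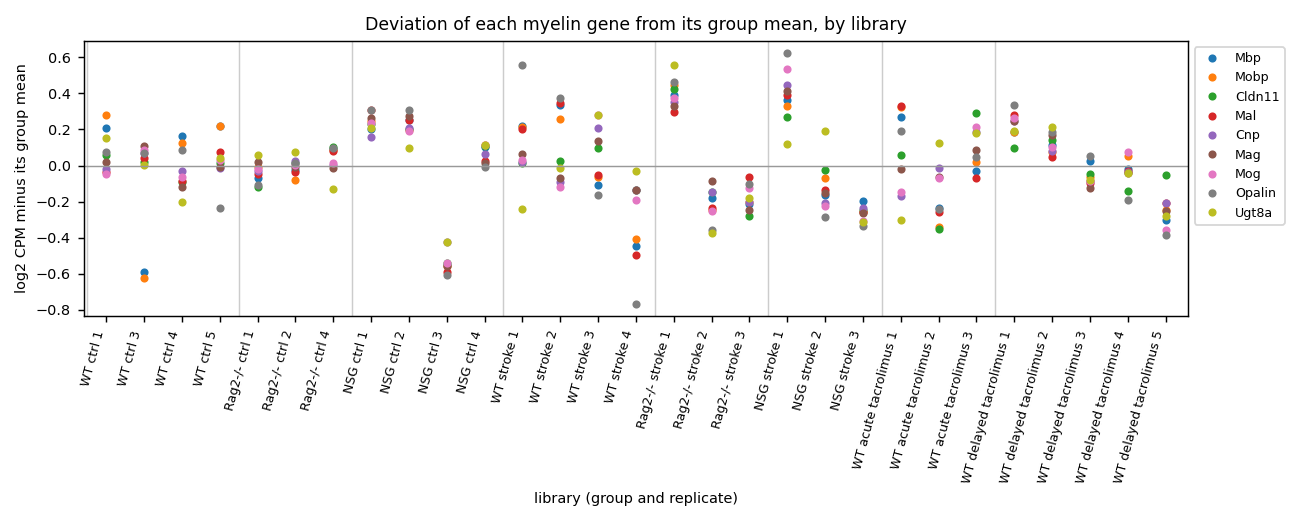
Difference of log2 CPM from the group mean (vertical axis) for the 9 genes (points, coloured by gene) in the 29 libraries (horizontal axis, ordered by group). Within a library most genes share a sign, as in NSG control replicate 3 with a mean of -0.53 and stroked Rag2-/- replicate 1 with a mean of 0.40, and WT control replicate 3 shows a low Mbp and Mobp beside 7 genes near 0.

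Within groups, the 9 genes rose and fell together from library to library. The correlations here are of deviations from the group mean of log2 CPM over 29 libraries, given as a description, and the genes of a library share its dissection and depth. With the mean of all 9 members, the gene itself included, r was 0.92 for Mag, 0.90 for Mal and 0.89 for Mog and Cldn11. It was 0.88 for Opalin and Cnp, 0.86 for Mbp, 0.85 for Mobp and 0.68 for Ugt8a. Deviations within group and cohort, in 28 libraries, were also set against the mean of the other 8 members. There r ran from 0.79 for Ugt8a to 0.95 for Cnp. Of 17022 other tested genes, 25 had r above 0.8 with the mean of the 9 members and 5 had r above 0.9. Those 5 were Tspan2, a tetraspanin of oligodendrocytes (0.91), Gpr37, a receptor of maturing oligodendrocytes (0.91), Ermn, a cytoskeletal protein of myelinating cells (0.91), Tmem88b (0.90) and Plekhb1 (0.90). Each of them had r between 0.91 and 0.98 in the 19 Imm2 libraries that have a group mate there.

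Among the members, the closest pairs were Mbp with Mobp (r = 0.98), Mog with Cnp (r = 0.98), Mag with Cnp (r = 0.95), Mog with Mag (r = 0.94) and Mal with Opalin (r = 0.91). Ugt8a was the least tied, with r from 0.39 with Mbp to 0.75 with Cnp and Mog. With deviations taken within group and cohort, its r ran from 0.67 with Mbp to 0.77 with Mal. Between these sets the correlation was lower, at 0.57 for Mbp with Cnp and 0.70 for Cnp with Opalin. Within the Imm2 cohort those values were 0.72 and 0.95, and that of Mbp with Cnp was 0.70 without WT control replicate 3. The mean of 28 further genes of mature oligodendrocytes had r of 0.95 with the member mean. That of 10 oligodendrocyte transcription factors had 0.74, that of 10 genes of newly formed oligodendrocytes 0.41 and that of astrocyte markers 0.37. Precursor genes, 9 in number, had -0.21 and peripheral myelin genes -0.49. The striatal and the choroid plexus markers each had 0.02.

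The wider oligodendrocyte programme was described with lists of other genes. Of 28 further genes of mature oligodendrocytes, 5 rose and 0 fell after stroke in WT, 5 rose and 0 fell in Rag2-/-, and 7 rose and 1 fell in NSG. Over all genes 15.2% rose and 11.6% fell in WT, 6.71% rose and 1.53% fell in Rag2-/-, and 13% rose and 8.89% fell in NSG. The median of the list was -0.05 in WT, 0.19 in Rag2-/- and 0.28 in NSG. The risers were led by Apod, a lipid carrier of the lipocalin family made by oligodendrocytes and also by other cells, with log2 fold changes of 1.76 (SE 0.24, adjusted p = 2.8e-05) in WT, 2.03 (SE 0.28) in Rag2-/- and 1.99 (SE 0.25) in NSG. Klk6, a secreted protease, rose by 1.15 in WT, 1.90 in Rag2-/- and 1.29 in NSG, and Trf, the iron carrier transferrin, by 0.57, 0.75 and 0.84. Trf is also made in choroid plexus, whose summed markers ranged from 4.12 to 1589 CPM, and their part in its level was not tested. Of the 28 genes only Apod, at 1.59, passed in WT with the cohort as a covariate, where 12.3% of all genes passed. With delayed tacrolimus 7 rose and 7 fell, near the shares of all genes, of which 27.6% rose and 27.6% fell. With the covariate 1 rose and 0 fell, where 9% of all genes passed. With acute tacrolimus 1 rose and 3 fell, where 6.18% of all genes rose and 2.36% fell. There 0 passed with the covariate, and 0.305% of all genes did.

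**Figure D4:**
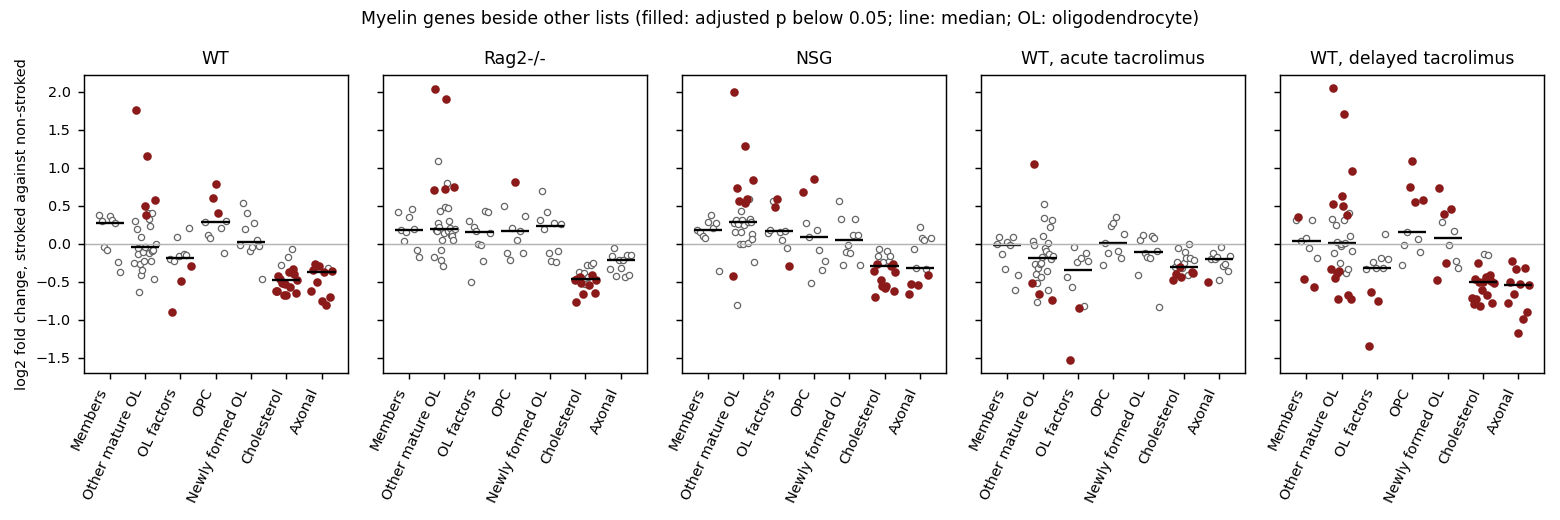
Log2 fold change (vertical axis) of the 9 members and of the genes of 6 related lists in the 5 comparisons of stroked with non-stroked mice. Points are genes, filled where the adjusted p was below 0.05, and lines are medians. The members sit near 0, with medians between -0.02 and 0.27, and the cholesterol synthesis genes sit below 0 in each comparison, with medians between -0.51 and -0.30.

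Oligodendrocyte transcription factors set the identity of the lineage, and 10 were tested. In WT 0 rose and 3 fell, Nkx2-2 by 0.90 (SE 0.20, adjusted p = 0.0021), Sox10 by 0.50 (SE 0.16, adjusted p = 0.020) and Zfp536 by 0.30 (SE 0.093, adjusted p = 0.020) on the log2 scale. Over all genes 15.2% rose and 11.6% fell in WT. Sox10 is a SOX family factor that myelin genes need for their expression, and Nkx2-2 acts in precursors and during their differentiation. Among the factors 0 passed in Rag2-/- (2 had an unadjusted p below 0.05, and DESeq2 called 0), and in NSG mice Olig2 at 0.58 and Olig1 at 0.48 rose while Zfp536 fell. Over all genes 8.23% passed in Rag2-/-, and 13% rose and 8.89% fell in NSG. Only Nkx2-2 passed in WT with the cohort as a covariate, at -0.60 (SE 0.18, adjusted p = 0.028), and Sox10 was at -0.26 (adjusted p = 0.22). In that fit 12.3% of all genes passed. There 5 of 10 factors were lower and 0 higher in TF than in Imm2, where 27.6% of all genes differed. Nkx2-2 was at -1.53 with acute tacrolimus and at -1.35 with delayed tacrolimus against the same controls, where delayed tacrolimus and cohort cannot be told apart. It was higher in stroked NSG than in stroked WT, by 1.39 (SE 0.21, adjusted p = 5.8e-05), among 5 of 10 factors that were higher there, against 6.6% of all genes, and 2 of them with the cohort as a covariate, where 9.11% of all genes passed.

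Precursor cells persist in the adult cortex and can form new oligodendrocytes. Of 9 of their genes tested, 3 rose in WT, 1 in Rag2-/- and 2 in NSG, and 0 fell, where 15.2%, 6.71% and 13% of all genes rose. Matn4, a matrix protein of precursors, was at 0.79 in WT, 0.81 in Rag2-/- and 0.85 in NSG, and Lhfpl3 at 0.59 and the sialidase Neu4 at 0.40 rose in WT. The count was 0 of 9 in WT under the cohort covariate, where 12.3% of all genes passed. Of 10 genes of newly formed oligodendrocytes, 0 passed in each of the 3 strains, with 3, 2 and 2 at an unadjusted p below 0.05 and 0 called by DESeq2. Of all genes 26.9% passed in WT, 8.23% in Rag2-/- and 21.9% in NSG. In NSG controls, Gpr17, a receptor of newly formed cells, was higher than in WT controls by 0.72 (SE 0.12, adjusted p = 2.0e-04) and Enpp6, a phosphodiesterase of the same stage, by 0.69 (SE 0.16, adjusted p = 0.0052), and the precursor genes Matn4, Neu4 and Pdgfra were higher by 0.72, 0.64 and 0.48. The cell cycle gene Ccnd1, also in the precursor list, was at -0.64 (adjusted p = 6.5e-05). Over all genes 4.84% were higher and 4.92% lower in NSG controls.

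Cholesterol, which oligodendrocytes and astrocytes make within the brain, is the main lipid that limits myelin growth, and the genes of its synthesis fell after stroke. Of 17 tested, 14 fell in WT, 10 in Rag2-/- and 11 in NSG, and 0 rose in any strain, where 11.6%, 1.53% and 8.89% of all genes fell. Summed neuron markers were at 7239 to 8035 CPM in WT controls and 4900 to 6735 CPM in stroked WT, 7270 to 7728 and 5214 to 6687 CPM in Rag2-/-, and 6154 to 7586 and 5364 to 6173 CPM in NSG, where the groups overlapped, and their part in the result was not tested. Hmgcs1, an early enzyme of the pathway, fell by 0.68 (SE 0.11, adjusted p = 1.1e-04) in WT, Sqle, which makes squalene epoxide, fell by 0.65 (SE 0.10, adjusted p = 7.2e-05), and Idi1 fell by 0.68. With the cohort as a covariate 11 of 17 fell in WT, where 12.3% of all genes passed, and within the Imm2 cohort 10 did, where 9.11% passed. With delayed tacrolimus 15 fell against WT controls, where 27.6% of all genes fell. With the covariate 10 did, where 9% of all genes passed. With acute tacrolimus 6 fell, where 2.36% of all genes fell. There 0 fell with the covariate, where 0.305% of all genes passed. The mean of these genes was hardly related to that of the members within groups (r = 0.06 over 29 libraries).

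Genes of the myelinated axon, namely node and paranode proteins and neurofilaments, also fell in WT. Of 11 tested, 10 fell in WT (11.6% of all genes), 0 in Rag2-/- (1.53%) and 4 in NSG (8.89%), and 0 rose. In Rag2-/- 4 had an unadjusted p below 0.05 and DESeq2 called 1. Nefm, the medium neurofilament subunit, fell by 0.81 (SE 0.16, adjusted p = 6.0e-04), Nefh, the heavy subunit, by 0.76 (SE 0.18, adjusted p = 0.0033) and the nodal sodium channel Scn8a by 0.71 (SE 0.14, adjusted p = 5.6e-04) in WT. With the cohort as a covariate 6 of 11 fell in WT, 2 in Rag2-/- and 5 in NSG. In that fit 12.3% of all genes passed in WT, 11.5% in Rag2-/- and 28.4% in NSG. Within the Imm2 cohort 2 fell in WT, where 9.11% of all genes passed. The summed neuron markers given above did not overlap between WT controls and stroked WT, and the part of neuron number in the axonal genes was not tested.

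Levels of the members relative to Cnp within a library show how they shifted against each other, a comparison chosen after the values were seen and given without a test. The ratio of Ugt8a to Cnp was 0.208 to 0.265 in WT controls and 0.123 to 0.158 in stroked WT, 0.151 to 0.182 with acute and 0.153 to 0.177 with delayed tacrolimus, so that all 3 stroke groups lay below the controls. In Rag2-/- mice it was 0.186 to 0.218 without and 0.133 to 0.180 with stroke, and in NSG mice 0.221 to 0.247 without and 0.134 to 0.222 with stroke, where the groups overlapped. The ratio of Mag to Cnp was 0.763 to 0.836 in WT controls and 0.611 to 0.663 in stroked WT, and 0.799 to 0.850 against 0.718 to 0.771 in Rag2-/- mice. In NSG mice it was 0.640 to 0.754 without and 0.665 to 0.71 with stroke, and with acute tacrolimus 0.653 to 0.776, both with overlap, and with delayed tacrolimus 0.634 to 0.694. The ratio of Mog to Cnp, by contrast, covered 0.183 to 0.194 in WT controls and 0.176 to 0.192 in stroked WT. Other ratios differed between cohorts. That of Opalin to Cnp was 0.048 to 0.066 in TF and 0.087 to 0.129 in Imm2 libraries. That of Mbp to Cnp was 7.91 to 9.11 in TF and 10.4 to 14.1 in Imm2 libraries, except 6.34 in WT control replicate 3. The part of the cohort in the ratios was not tested. A ratio shows unequal change and does not say which of the genes moved.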

How the data were processed

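Poly(A) RNA of brain tissue was sequenced with a stranded kit, and the authors deposited raw read counts per gene (unnormalized counts, 1 file per library). The aligner, genome build and strand setting are not given in the sources used here. Symbols, exon lengths and gene overlaps were taken from GENCODE M21, which names 25635 of the 25746 gene identifiers. Counts were filtered by group (filterByExpr), TMM-scaled and fitted in 1 edgeR quasi-likelihood model of 8 groups and 29 libraries (R 4.3.3, edgeR 4.0.16, limma 3.58.1), with Benjamini-Hochberg adjustment over 17031 genes; passed means an adjusted p below 0.05. Levels are CPM, and log2 CPM used a prior count of 2. Intervals are 95%. Groups came from the labels and cohorts from the sample titles. No pair of libraries was identical. Sample titles also hold numbers and, in some, letters such as f or m, whose meaning is not stated. Animals are not named, so p-values measure the spread between these samples. The 9 genes were named always, and from each other list up to 3 passing genes per direction with the largest change, plus the 5 genes most like the members; a few of these genes are not reported here. Members and lists were chosen with earlier results of these data known. Alternatives were RLE scaling, DESeq2 1.42.0, other filters, the cohort as a covariate or alone, fits of fewer groups, a replicate block and leaving out each library. Scripts were tested on simulated counts. Figures were drawn with matplotlib 3.10.9.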

Additional observations from a re-analysis of the deposited data

Results flagged for a closer look

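A library far from the rest of its group, by Dixon's criterion at the 95% level, was found in 3 of the 36 sets of 4 or 5 libraries tested over the 9 genes, where chance gives about 1 in 20. All 3 were WT controls. Mbp was at 1648 CPM in WT control replicate 3, where the other WT controls were at 2771 to 2883 CPM and the gap was 0.91 of the whole range. Cnp was at 259.7 CPM in the same library, above the 242 to 245 CPM of the others, with a gap of 0.84 of the range. Opalin was at 24.1 CPM in WT control replicate 5, below the 29.8 to 30.1 CPM of the others, with a gap of 0.94 of the range. The other controls lay close together for each of these genes, so that small distances counted as large shares of the range for Cnp and Opalin. No stroked or tacrolimus-treated library was set apart in this way among the groups of 4 or 5.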

How the results depend on the processing

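The count of members that passed was 0 in 16 of the 17 comparisons and 3 for delayed tacrolimus against WT controls. Of 2610 values of single members under other settings, 2574 kept their side of the threshold, 23 no longer passed, 2 of them with the sign changed, and 13 newly passed. The sign also changed in 219 values that passed in neither fit. For delayed tacrolimus, adding the cohort to the model left 0 calls, with Mal at 0.050 and Opalin at 0.094. The count was also 0 when a log2 fold change above 1 was also required, and 5 (3 higher, 2 lower) when only the groups compared were fitted. The cause of that last difference was not tested. Leaving out 1 library gave counts of 0 to 3 for delayed tacrolimus, 0 to 1 for stroked NSG against stroked WT, where Opalin passed without stroked WT replicate 1, 0 to 1 for NSG against WT controls, where Mog passed without NSG control replicate 3, and 0 to 1 for delayed against acute tacrolimus, where Cldn11 passed without acute replicate 3. For stroke in WT the count was 3 when only the groups compared were fitted, namely Cnp, Cldn11 and Ugt8a, and that fit shares no spread with the other groups. RLE scaling, DESeq2 and other filters on low counts changed no count by more than 1.5 times. With acute replicate 3 alone, or with only the TF cohort, both chosen after seeing the data, 0 members passed.

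Replicate numbers were shared among control libraries of different strains, but same-numbered libraries did not deviate together, with correlations of deviations between -0.26 and 0.11, so the numbers do not pair the libraries. With the replicate block, 1 member passed between NSG and WT controls, Mbp at 0.38, as did 5.07% of all genes, against 0 without the block in the same libraries. Between NSG and Rag2-/- controls 2 passed with the block and 2 without it, Mog and Ugt8a, against 7.49% and 8.37% of all genes, in a fit that held NSG and Rag2-/- replicates 1, 2 and 4. Counts of at least 291 reads per gene and library left little counting error, and the number of libraries set the precision.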

Other observations

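WT control replicate 3 stood apart in few genes. Of 8780 genes with a mean log2 CPM above 4, 13 were more than 0.7 lower there than in the mean of the other WT controls, and Mobp and Mbp ranked 7 and 8 from the lowest. Kif1c, a kinesin, was at 50.4 CPM against 99.6 to 150 CPM in the other controls, and Prr18, a gene of oligodendrocytes, was at 38.4 CPM against 61.6 to 68.4 CPM. The choroid plexus gene Ttr was at 0.87 CPM there, against 1.77 to 730 CPM. The genes were picked out after the values were seen, and no test was made.

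Other cell types moved around the myelin genes. After stroke in WT, 7 of 8 microglia and macrophage markers, 6 of 7 astrocyte markers and 5 of 6 fibroblast markers rose, while 3 of 7 neuron markers, 3 of 5 endothelial markers, 2 of 5 upper layer and 1 of 7 deep layer neuron markers fell. Over all genes 15.2% rose and 11.6% fell in WT, and the deep layer count was near that share. Of 6 peripheral myelin genes 2 rose in WT. Their summed level had a median of 117 CPM in WT controls and 104 CPM in stroked WT. In Rag2-/- mice 6 of 8 microglia and macrophage markers, 4 of 7 astrocyte markers and 5 of 6 fibroblast markers rose, and in NSG mice 7, 3 and 5 of them did. Over all genes 6.71% rose in Rag2-/- and 13% in NSG. Neither striatal nor choroid plexus markers passed in these 3 strains, where 26.9% of all genes passed in WT, 8.23% in Rag2-/- and 21.9% in NSG.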
